A study of Sus scrofa with 6 samples.

Results

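Enterochromaffin cells of the neonatal pig ileum were followed here as barcodes that met a rule on 3 genes. A barcode, the DNA tag of 1 droplet, counted as an enterochromaffin cell with at least 1000 UMIs (unique molecular identifiers, 1 per captured transcript), at least 500 genes, at least 10 UMIs of CHGA and CHGB together, and at least 3 UMIs of TPH1. This rule was met by 433 of the 76099 barcodes over the first pair of minima. They made up 55.9% of the 775 endocrine barcodes, those with 10 or more UMIs of CHGA and CHGB (exact Clopper-Pearson 95% interval 52.3 to 59.4%). The other 342 endocrine barcodes served as the comparison. The samples were ileal mucosa of untreated male large white piglets suckled by their sows, taken on days 0 (birth), 1, 3, 7, 14 and 21, with 1 library at each age. The mucosa was scraped and taken apart with EDTA and TrypLE, and how the cells of the piglets of an age were combined is not given in the sources used here. The sample labels name the ileum, whereas the description of the series names the cecum. With 1 library per age, no difference between ages was tested, and the exact intervals cover counting error only.

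Enterochromaffin cells are endocrine cells of the gut lining that make most of the serotonin of the body. TPH1, tryptophan hydroxylase 1, makes 5-hydroxytryptophan, DDC turns it into serotonin, and the vesicular transporter SLC18A1 loads it into granules that also hold chromogranins. The cells release serotonin onto nerve endings and neighbouring cells in response to nutrients, irritants and stretch, and the transcription factor LMX1A is known for driving TPH1 in them. Many also make small peptides, such as tachykinins from TAC1 and enkephalins from PENK. In Sscrofa11.1 the annotation places TPH1 on chromosome 2 at 41075623 to 41109005, DDC on chromosome 9 at 136496364 to 136571220, SLC18A1 on chromosome 14 at 4243553 to 4279341, LMX1A on chromosome 4 at 85403287 to 85570738, PENK on chromosome 4 at 75525497 to 75530403 and TAC1 on chromosome 9 at 77197403 to 77206529, all as protein-coding genes.

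Barcodes that met the rule were found in the first week only. Days 0, 1, 3 and 7 gave 334, 68, 26 and 5 barcodes. As a share of all barcodes over the minima this was 3.08% on day 0 (exact 95% interval 2.76 to 3.43%), 0.592% on day 1 (0.460 to 0.749%), 0.229% on day 3 (0.150 to 0.335%) and 0.0396% on day 7 (0.0129 to 0.0923%). No barcode met it among 15956 on day 14 or 13818 on day 21, where a count of 0 allows shares of up to 0.0188% and 0.0217% when 3 barcodes are taken as the limit. The intervals of neighbouring ages from day 0 to day 7 did not overlap. Those for day 7 and the 2 later ages were not set apart in this way, since the upper bounds of the exact two-sided intervals for day 14 (0.0231%) and day 21 (0.0267%) lie above the lower bound of day 7.

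The other endocrine barcodes became scarcer alongside. They numbered 284, 39, 14 and 5 over the same days and 0 afterwards. The share of enterochromaffin barcodes among endocrine ones was 54.0% on day 0 (50.02 to 58.0%), 63.6% on day 1 (53.7 to 72.6%), 65.0% on day 3 (48.3 to 79.4%) and 50% on day 7 (18.7 to 81.3%). These intervals overlap throughout. With at least 5 UMIs of TPH1 they did not: the share was then 29.1% on day 0 (25.6 to 32.9%), below 49.5% on day 1 (39.7 to 59.4%) and 50% on day 3 (33.8 to 66.2%), while in the 8 other settings tried the intervals of the 4 ages overlapped. The median depths of both kinds were lower on day 0 than on days 1 and 3, and the part of depth in this order was not tested. The shares are of dissociated cells, and how well endocrine cells survived the preparation at each age was not tested. The shares of all barcodes also rest on a denominator whose markers changed with age. In barcodes without CHGA or CHGB of days 0, 1, 3 and 7, goblet markers summed to 100, 30.8, 2.61 and 0.39 UMIs per 10000. Absorptive enterocyte markers summed to 55.6, 59.8, 0.469 and 6.74, and B cell markers to 17.6, 30.0, 57.4 and 83.4. T and NK cell markers summed to 15.5, 7.42, 2.86 and 4.53. The part of these changes in the falling share was not tested.

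**Figure D1:**
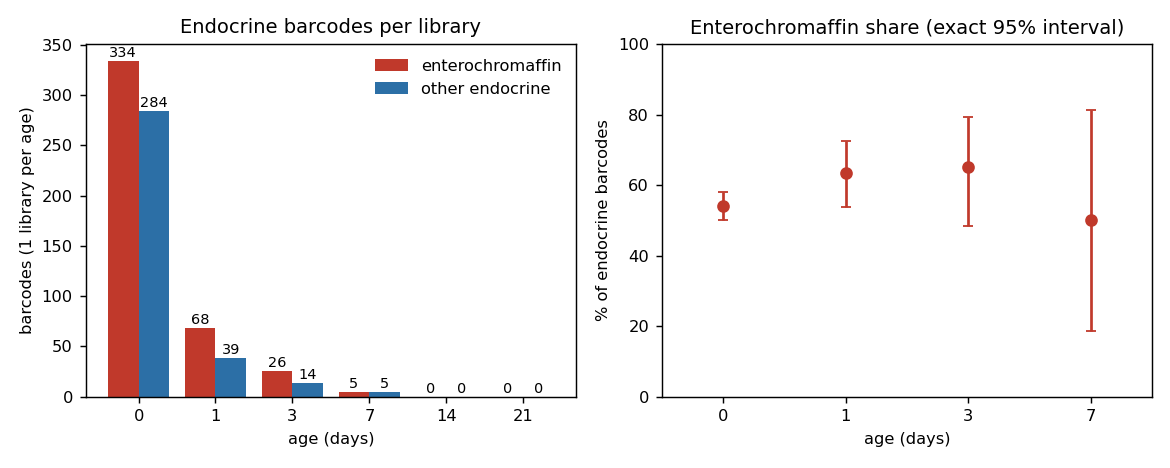
Endocrine barcodes by age in days, 1 library per age. Left, bars count enterochromaffin barcodes (red, 334, 68, 26, 5, 0 and 0) and other endocrine barcodes (blue, 284, 39, 14, 5, 0 and 0). Right, points give the enterochromaffin share of endocrine barcodes with exact 95% intervals, between 50 and 65.0%.

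TPH1, CHGA and CHGB chose the cells, so their values only describe them. TPH1 had a median of 5 UMIs per enterochromaffin barcode on day 0, with 3 as the lowest and 30 as the highest. On day 1 the median was 6.5 (3 to 44), on day 3 it was 9 (3 to 17), and the 5 barcodes of day 7 held 4 to 17. Just inside the TPH1 threshold lay 91 barcodes with 3 UMIs and just outside it 91 with 2. CHGA and CHGB, the chromogranins of the granule core, had medians of 57.5 and 26 UMIs in enterochromaffin barcodes of day 0. The other endocrine barcodes of day 0 had medians of 23 UMIs of CHGA and 6 of CHGB.

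The name was checked against the 18 genes of the enterochromaffin marker list. A UMI of DDC was found in 362 of the 433 barcodes (83.6%), of LMX1A in 311 (71.8%), of SLC18A1 in 280 (64.7%) and of TAC1 in 111 (25.6%), against 54.1, 37.4, 39.5 and 13.2% of the other endocrine barcodes. UCN3 had a UMI in 90.8%, GCH1 in 53.8%, CRYBA2 in 27.3%, RAB3C in 27.3% and MNX1 in 25.9%. In the others these shares were 76.0, 44.7, 19.9, 23.1 and 10.5%. Some listed markers were rarer, with a UMI of FEV in 10.9%, CES1 in 10.2%, TRPA1 in 5.31% and PIEZO2 in 1.15% (7.60, 7.02, 0.877 and 5.26% of the others), and ADGRG4, ADRA2A and CARTPT at 0. Secretin (SCT), also on the list, went the other way, with a UMI in 23.6% of enterochromaffin barcodes and 31.0% of the others. In barcodes without any CHGA or CHGB of day 0, the same genes had a UMI in 13.8% (DDC), 0.335% (LMX1A), 0.555% (SLC18A1) and 0.157% (TAC1), at a median depth of 3637.5 UMIs. With every barcode of day 0 thinned to 1000 UMIs, DDC had a UMI in 34.1% of enterochromaffin barcodes, 23.2% of the other endocrine ones and 1.85% of those without CHGA or CHGB, and PENK in 52.4, 23.6 and 0.20%. REG4, a secreted lectin given as a marker of these cells, set them apart on day 0 by share and not by summed level. It had a UMI in 63.5% of enterochromaffin barcodes, 33.5% of the other endocrine ones and 26.1% of those without CHGA or CHGB, but its summed level of 12.9 UMIs per 10000 on day 0 lay beside 12.4 in barcodes without CHGA or CHGB and 11.6 in barcodes of at most 100 UMIs. The neuronal enzyme TPH2 was at 0 in all endocrine barcodes, and so was the neuronal granule transporter SLC18A2 in the enterochromaffin ones. Mast cells also use TPH1. Their 7 listed markers summed to between 0 and 0.0619 UMIs per 10000 in the enterochromaffin barcodes of the 4 ages, with 4 of the 7 at 0 throughout. The 4 platelet markers summed to between 0 and 0.113.

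The counts summed to between 77391932 and 100348769 UMIs per library. Enterochromaffin barcodes had median depths of 4561 (day 0), 5617.5 (day 1), 5208.5 (day 3) and 5619 UMIs (day 7), against 3836.5, 4538, 6343 and 4228 in the other endocrine barcodes. The mean of the library differences was 223 UMIs over days 0, 1 and 3 (exact two-sided sign-flip permutation p = 1), 230 genes (exact permutation p = 0.5) and -0.0558 percentage points of mitochondrial UMIs (exact permutation p = 1). With 3 libraries such a test cannot go below 0.25. Doublets were kept. Barcodes high in markers of another cell type, with 10 or more UMIs of an immune, mast, stromal or neuronal list, 20 or more of the crypt list or 200 or more of the goblet list, numbered 64 of the 433 and 51 of the 342. On day 7, 1 of the 5 enterochromaffin barcodes held 158 UMIs of T and NK cell markers. On day 3, 3 of the 14 other endocrine barcodes held 10 or more UMIs of enteric neuron and glia markers, with 135 in the highest, and 1 of the 26 enterochromaffin barcodes held 53. The barcode sequences of 7 enterochromaffin cells of day 0 also occurred among the barcodes over the minima of another library, none of them endocrine there.

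The serotonin pathway was tested first. Summed UMIs per library were compared between enterochromaffin and other endocrine barcodes with edgeR's quasi-likelihood test, with the library as a term, over the 3 libraries with at least 10 barcodes of each kind (days 0, 1 and 3). Of 9480 genes, 71 were called (0.749%), 4 higher (0.0422%) and 67 lower (0.707%), at an adjusted p (Benjamini-Hochberg over all genes) under 0.05, and 369 had an unadjusted p under 0.05. The p-values measure the spread between these libraries only, and each library is of another age. DESeq2's Wald test called 0 higher and 32 lower. The counts rested on each library: without day 0 they were 9 and 30, without day 1 18 and 78, and without day 3 21 and 103. Of the 10 genes of serotonin synthesis and handling in the files, 5 could be tested besides the rule's TPH1, and none was called. Their median log2 fold change was 0.30, beside 0.03 over all genes. Of the enterochromaffin marker list 13 genes were tested, and none was higher and 1 lower, SCT (median 0.47). A gene entered the test with 50 UMIs over both kinds. Of the 67 lower genes, 45 had fewer than 50 in the enterochromaffin barcodes, and of the 4 higher ones 3 had fewer than 50 in the others, so they were tested only through the kind in which they were high. Among the 5898 genes with 50 UMIs in both kinds, 1 was higher and 22 were lower.

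DDC had the largest difference of the pathway. Its level on days 0, 1, 3 and 7 was 3.46, 4.54, 7.79 and 5.26 UMIs per 10000 in enterochromaffin barcodes, and 1.72, 2.73, 2.20 and 1.11 in the other endocrine barcodes. Enterochromaffin barcodes were above the others in all 4 libraries. The log2 fold change was 1.08 ± 0.26 (SE derived from the F statistic, n = 3 libraries, edgeR adjusted p = 0.0909), which missed the threshold. It passed without day 1 (1.27, adjusted p = 0.0130) and without the barcodes high in markers of another cell type (0.94, adjusted p = 0.0318), an alternative chosen after seeing the data in which 85 of 7748 genes were called (1.1%), 15 higher (0.194%) and 70 lower (0.903%).

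SLC18A1 and MAOB did not pass either. SLC18A1 stood at 1.60 UMIs per 10000 in enterochromaffin barcodes and 0.817 in the others on day 0, at 1.16 and 2.05 on day 1, and at 2.26 and 1.10 on day 3. The 2 kinds thus changed places on day 1, and the log2 fold change was 0.30 ± 0.33 (edgeR adjusted p = 1). MAOB, which breaks down monoamines, had a log2 fold change of 0.92 ± 0.32 (adjusted p = 0.720). SLC6A4, the transporter that takes serotonin back up, had 3 UMIs in all enterochromaffin barcodes together. The 8 genes that make the cofactor of TPH1, tetrahydrobiopterin, were all tested and none was called. Its first enzyme GCH1 had a log2 fold change of -0.11 ± 0.25, and the median of the 8 was 0.28. Of the tryptophan uptake and kynurenine genes, 9 of 11 were tested and none was called (median -0.22). Of 14 serotonin receptors only HTR1D was frequent enough to test, with a log2 fold change of 0.88 ± 0.46 (adjusted p = 1) and a UMI in 68 of the 433 barcodes.

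The comparison barcodes with a little TPH1 resembled the enterochromaffin ones. On day 0, 149 endocrine barcodes had no TPH1, 60 had 1 UMI, 75 had 2, 77 had 3, 77 had 4, 126 had 5 to 9 and 54 had 10 or more. LMX1A stood at 0.223 UMIs per 10000 in the first group and at 2.01 and 1.65 with 1 and 2 UMIs of TPH1, beside 1.87 with 3. PENK stood at 0.484 without TPH1, at 5.93 and 10.5 with 1 and 2 UMIs, and at 10.9 with 3. NTS, the precursor of neurotensin, stood at 948 without TPH1, at 3.85 and 0.922 with 1 and 2 UMIs, and at 1.39 with 3. For LMX1A, PENK, LUZP2, DDC, PCSK1 and NTS alike, the largest fold step lay between 0 and 1 UMI of TPH1 and not at the threshold of 3. The groups with 1 to 3 UMIs were also the shallowest, with median depths of 3269 to 3455 UMIs, beside 5201 without TPH1 and 6449.5 with 10 or more. The 135 barcodes of day 0 with 1 or 2 UMIs of TPH1 thus stood on the comparison side with levels of these genes near those of the enterochromaffin barcodes.

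**Figure D2:**
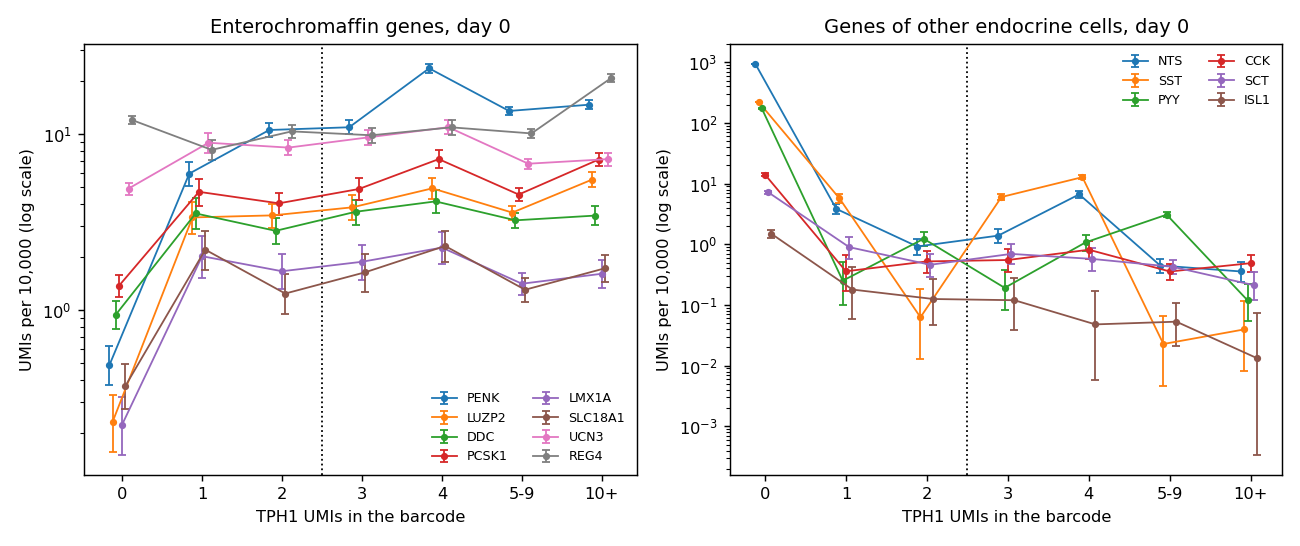
Summed UMIs per 10000 (log axis) in day 0 endocrine barcodes grouped by their TPH1 UMIs, with exact Poisson 95% intervals; the dotted line marks the threshold of 3. PENK goes from 0.484 to 5.93 (left) and NTS from 948 to 3.85 (right) between 0 and 1 UMI of TPH1, while UCN3 and REG4 show no such step and SST is again higher (6.02 and 12.8) at 3 and 4 UMIs than at 2.

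Against endocrine barcodes without any TPH1 the contrast was wider. This alternative had 2 libraries with 10 or more barcodes on both sides, days 0 (334 against 149) and 1 (68 against 17). Of 8801 genes, 230 were called (2.61%), 110 higher (1.25%) and 120 lower (1.36%) in enterochromaffin barcodes, and 698 had an unadjusted p under 0.05. All 4 higher genes of the first comparison and 50 of its 67 lower ones were among them. With 2 libraries the spread of a gene is mostly borrowed from the other genes. Of the 110 higher genes, 83 had fewer than 50 UMIs in the barcodes without TPH1, and of the 120 lower ones 61 had fewer than 50 in the enterochromaffin barcodes, so these too were tested only through the kind in which they were high. Among the 3509 genes with 50 UMIs in both kinds, 27 were higher and 58 lower. DDC (log2 fold change 1.56, edgeR adjusted p = 0.00052), SLC18A1 (1.56, adjusted p = 0.00129) and MAOB (1.56, adjusted p = 0.00315) were higher, 3 of the 5 serotonin genes tested (median 1.56, beside 0.03 over all genes). MAOB had 36 UMIs in the barcodes without TPH1, and with 50 asked of both kinds 2 of 3 serotonin genes were higher. Of the list of enterochromaffin markers, 4 of 13 were higher here, against none in the comparison with all other endocrine barcodes, namely LMX1A (2.70, adjusted p = 4.19e-09), TAC1 (2.10, adjusted p = 5.66e-06), DDC and SLC18A1, and SCT was lower. LMX1A (31 UMIs in the barcodes without TPH1) and TAC1 (29) were tested only through the enterochromaffin barcodes. With 50 UMIs asked of both kinds, 2 of 7 markers were higher, DDC and SLC18A1. REG4 was not called (1.42, adjusted p = 0.0631), nor was UCN3 (0.51, adjusted p = 0.960).

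The genes that stood highest by the naming rule in this contrast were led by PENK and LUZP2. Of the genes named from this rule, only PENK, with 70, had 50 UMIs or more in the barcodes without TPH1. The others were tested only through the enterochromaffin barcodes. PENK, the enkephalin precursor, had a log2 fold change of 4.31 ± 0.45 (edgeR adjusted p = 4.03e-17) and a UMI in 72.5% of enterochromaffin barcodes. LUZP2, a leucine zipper protein, followed with 4.09 ± 0.42 (adjusted p = 2.71e-17) and a UMI in 78.1%, and had 31 UMIs in the barcodes without TPH1. The claudin CLDN10 (3.94), the cytochrome P450 gene CYP2C49 (3.63), the fibroblast growth factor homologue FGF13 (3.12) and the transcription factor GLIS3 (2.57) were higher as well. So were COL1A2, a collagen chain of the stromal marker list (3.34), and CD247, the zeta chain of the T cell receptor (2.52). COL1A2 had a UMI in 40.7% of enterochromaffin barcodes of day 0, 15.8% of the other endocrine ones and 5.19% of those without CHGA or CHGB, with at most 21 UMIs in a barcode. CD247 had one in 38.6, 18.7 and 16.6%, with at most 6 UMIs. All 3 stromal and endothelial markers that could be tested were higher in this contrast, beside 110 of 8801 over all genes. They were COL1A2, COL3A1 (3.24) and the proteoglycan DCN (3.88), all with 14 UMIs or fewer in the barcodes without TPH1. All 7 genes of the stromal and endothelial list summed on day 0 to 2.71 UMIs per 10000 in enterochromaffin barcodes, with 14 barcodes at 10 UMIs or more. In the other endocrine ones they summed to 1.93, with 2 such barcodes, and in those without CHGA or CHGB to 3.06. The part of the barcodes at 10 UMIs or more in the 3 calls was not tested.

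**Figure D3:**
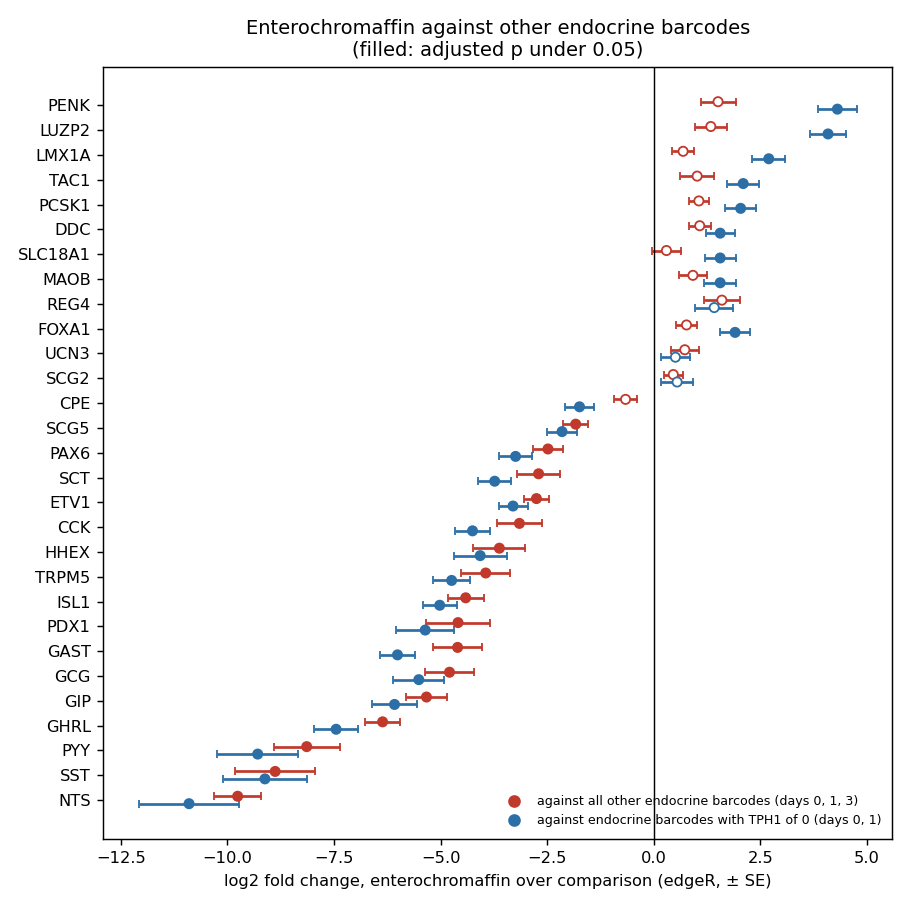
Log2 fold change (edgeR) with a standard error derived from its F statistic, of enterochromaffin barcodes against all other endocrine barcodes (red, days 0, 1 and 3) and against those without TPH1 (blue, days 0 and 1). Filled points have an adjusted p under 0.05. PENK moves from 1.51 to 4.31 and LMX1A from 0.69 to 2.70, while NTS lies at -9.76 and -10.9.

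Most hormones of other endocrine cells were lower. Of 17 peptide hormone genes tested against all other endocrine barcodes, 12 were lower and none was higher, and the median log2 fold change was -3.15, beside 0.03 over all genes. With 50 UMIs asked of both kinds, 8 of 13 were lower, beside 22 of 5898 over all genes, since GHRL, GIP, GAST and VIP fell below that in the enterochromaffin barcodes. NTS, the hormone of N cells, stood at 1.45 UMIs per 10000 in enterochromaffin barcodes and 601 in the others on day 0, at 0.0672 and 220 on day 1, at 0 and 0 on day 3, and at 0 and 2923 on day 7 (log2 fold change -9.76 ± 0.55, edgeR adjusted p = 3.64e-07). SST, the somatostatin of D cells, stood at 2.72 and 141 on day 0, at 0.0269 and 155 on day 1, and at 0 and 289 on day 3 (-8.88 ± 0.94, adjusted p = 7.14e-05). PYY of L cells stood at 1.61 and 111 on day 0, at 0.0403 and 154 on day 1, and at 0 and 7.06 on day 3 (-8.14 ± 0.77, adjusted p = 2.92e-05). Apart from NTS on day 3, enterochromaffin barcodes were lower in each of these libraries.

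The other hormones were lower by smaller steps. Against the barcodes without TPH1, 11 of 15 were lower and 2 higher, PENK and TAC1, beside 120 lower and 110 higher of 8801 over all genes. With 50 UMIs asked of both kinds, 8 of 11 were lower and PENK alone was higher, beside 58 lower and 27 higher of 3509. In the comparison with all other endocrine barcodes the remaining calls were ghrelin (GHRL, log2 fold change -6.36), GIP (-5.33), proglucagon (GCG, -4.79), gastrin (GAST, -4.60), CCK of I cells (-3.15), secretin (SCT, -2.70), VIP (-4.80), galanin (GAL, -2.86) and uroguanylin (GUCA2B, -1.35). GIP was seen in few barcodes, with a UMI in 5 of the 433 (1.15%) and 6 of the 342 others (1.75%). Of its 777 UMIs in the others, 775 lay in 2.68% of the 149 day 0 barcodes without TPH1. Without day 0, CCK (-1.5, adjusted p = 0.452), SCT (-1.27, adjusted p = 0.697) and GUCA2B (-1.30, adjusted p = 0.374) were no longer called, and GIP could not be tested. Without day 1, GUCA2B was not called (-1.15, adjusted p = 0.405). Over all 16 alternatives, CCK and SCT were each called in 12 and GUCA2B in 8. VIP and GAL are neuropeptides, and their calls rested on day 3, where the other endocrine barcodes included the 3 high in neuronal markers. VIP was at 0 in both kinds on days 0 and 1, and neither gene could be tested without day 3 or without the barcodes high in markers of another cell type.

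Single barcodes held most of the NTS, SST and PYY that was seen. Of the 422 NTS UMIs in enterochromaffin barcodes of day 0, 258 were in 1 barcode, and the next held 22. A pair of barcodes held 527 and 241 of the 791 SST UMIs, and another held 302 of the 468 PYY UMIs. In all, 11 of the 433 enterochromaffin barcodes had 20 or more UMIs of any of NTS, PYY, SST, GCG, CCK, GIP, GHRL, GAST, SCT, VIP or GAL, against 137 of the 342 others. Whether the 11 were doublets was not tested. A single UMI says little here, since NTS had one in 29.6% of enterochromaffin barcodes of day 0 and in 29.8% of barcodes without CHGA or CHGB, at median depths of 4561 and 3637.5 UMIs. SCT differed from NTS in this respect, with a UMI in 26.3% of enterochromaffin barcodes of day 0 and 1.53% of those without CHGA or CHGB, and at most 7 UMIs in a barcode. Over all ages CCK had a UMI in 17.1% of enterochromaffin barcodes and 19.0% of the others.

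**Figure D4:**
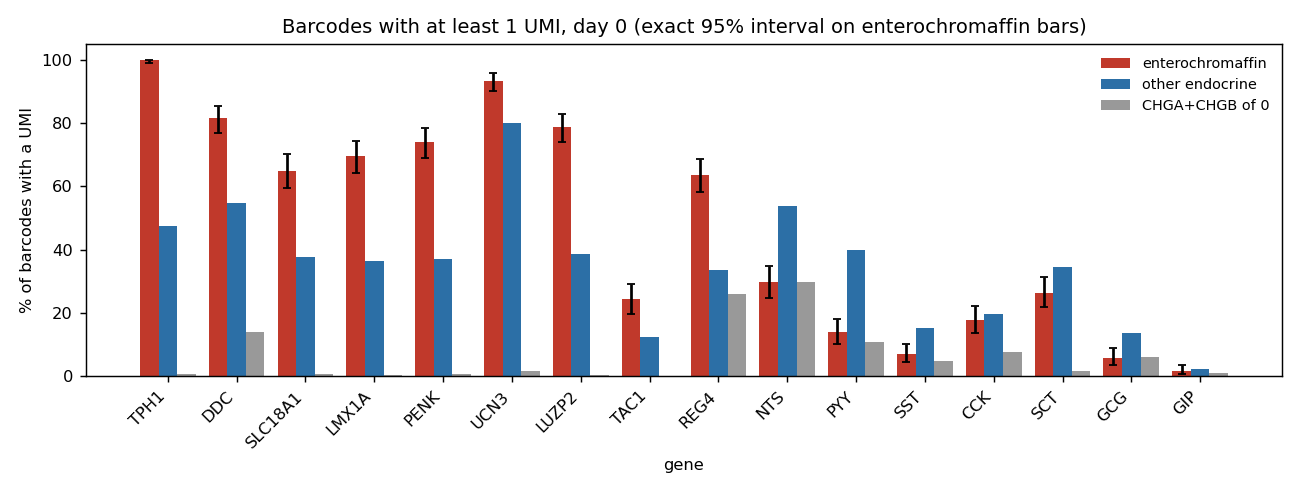
Percent of day 0 barcodes with at least 1 UMI of each gene, for enterochromaffin barcodes (red, with exact 95% intervals), other endocrine barcodes (blue) and barcodes without CHGA or CHGB (grey). DDC, LMX1A and PENK stand far above the grey bars, whereas NTS lies at 29.6% beside 29.8%; TPH1 is at 100% by the rule.

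The peptide genes PENK, UCN3 and TAC1 were not called against all other endocrine barcodes. PENK stood at 14.8 UMIs per 10000 in enterochromaffin barcodes and 3.54 in the others on day 0, at 8.06 and 7.71 on day 1, at 5.87 and 0.550 on day 3, and at 8.24 and 1.49 on day 7. On days 0 and 3 the exact intervals of the 2 kinds were apart, and on day 1 they overlapped. Among the others of day 1, PENK stood at 0.740 without TPH1 and at 16.05 and 10.3 with 1 and 2 UMIs of TPH1. Against all other endocrine barcodes the log2 fold change was 1.51 ± 0.41 (edgeR adjusted p = 0.199), and it was called without day 1 (2.38) and without barcodes high in markers of another cell type (1.38, adjusted p = 0.0131). Per barcode PENK ranged on day 0 from 0 to 136 UMIs with a median of 4, and 87 of the 334 barcodes had none. In the other endocrine barcodes of day 0 the median was 0 and the highest value 52.

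UCN3, urocortin 3 of the corticotropin-releasing family, was shared by both kinds. It stood at 7.85 UMIs per 10000 in enterochromaffin barcodes and 6.22 in the others on day 0, at 4.98 and 3.98 on day 1, and at 4.52 and 0.825 on day 3 (log2 fold change 0.73 ± 0.33, adjusted p = 1). It had a UMI in 90.8% of enterochromaffin barcodes, 76.0% of the other endocrine ones and, on day 0, 1.65% of barcodes without CHGA or CHGB. TAC1 stood at 1.04 and 0.365 on day 0, at 1.69 and 1.89 on day 1, and at 1.86 and 0.0916 on day 3 (1.02 ± 0.40, adjusted p = 0.999). It was called without day 1 (1.88, adjusted p = 0.00167). Among the others of day 1, TAC1 stood at 0.529 without TPH1 and at 7.37 and 0.739 with 1 and 2 UMIs of TPH1. Day 7 showed 15.8 UMIs of TAC1 per 10000, but 67 of its 69 UMIs came from 1 barcode.

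The peptides overlapped within the enterochromaffin barcodes. Of the 433, 272 had at least 2 UMIs of PENK (62.8%), 353 of UCN3 (81.5%) and 70 of TAC1 (16.2%). All 3 peptides were found in 37 barcodes and none of them in 36. PENK was found in 58.6% of barcodes with TAC1 and in 63.6% of those without it, and UCN3 in 85.7% of barcodes with PENK and 74.5% of those without. These shares are descriptive, since barcodes of a library are not replicates. On day 0 the 48 barcodes with at least 2 UMIs of TAC1 held 8.91 UMIs of PENK per 10000 (exact Poisson 95% interval 8.12 to 9.76) and 26.7 of REG4 (25.3 to 28.1), and the 253 without TAC1 held 17.7 of PENK (17.1 to 18.3) and 8.22 of REG4 (7.84 to 8.62). On day 1 the order was the same, with 4.58 and 9.04 of PENK and 14.7 and 8.95 of REG4. On day 3 it was not, with 8.08 and 8.27 of PENK and 0.539 and 7.00 of REG4, in 3 barcodes with TAC1 and 21 without. Nor did more barcodes with TAC1 hold REG4, since at least 2 UMIs of it were in 20 of 48 barcodes with TAC1 and 125 of the other 286 on day 0, and in 3 of 17 and 23 of 51 on day 1. TPH1 hardly differed on day 0, at 7.10 and 7.35. The median depths were 5383.5 and 4494 UMIs on day 0.

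REG4 was carried by a minority of barcodes. Its median was 1 UMI on day 0 and 0 on day 1, while the highest barcodes held 795 and 321. Its level was 12.9 UMIs per 10000 in enterochromaffin barcodes and 11.06 in the others on day 0, 10.5 and 1.16 on day 1, and 4.12 and 1.01 on day 3. The log2 fold change was 1.60 ± 0.43 (edgeR adjusted p = 0.202). It was called without day 0 (2.63), without day 3 (1.44) and without barcodes high in markers of another cell type (1.26, adjusted p = 0.00964). Without those barcodes the level of REG4 in enterochromaffin barcodes was 4.76 on day 0, 4.73 on day 1 and 6.81 on day 3. REG4 is also a product of secretory cells outside the endocrine lineage, and goblet markers summed to between 7.28 and 46.6 UMIs per 10000 in enterochromaffin barcodes of the 4 ages and to between 11.6 and 55.1 in the other endocrine ones. The 6 goblet markers tested gave no call against all other endocrine barcodes.

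Of 27 transcription factors tested, 6 were lower in enterochromaffin barcodes and none was higher, beside 67 lower and 4 higher of 9480 over all genes. The median log2 fold change of the 27 was 0.02, beside 0.03 over all genes. Of the 6, 4 had under 50 UMIs in enterochromaffin barcodes and were tested only through the others, ISL1, PDX1 and HHEX among them. With 50 UMIs asked of both kinds, 2 of 20 were lower, PAX6 and ETV1, beside 22 of 5898 over all genes. ISL1, which acts in several peptide hormone lineages, stood at 0.0516 UMIs per 10000 in enterochromaffin barcodes and 0.996 in the others on day 0, at 0.0672 and 0.884 on day 1, and at 0 and 2.29 on day 3 (-4.41 ± 0.42, edgeR adjusted p = 2.92e-05). PAX6 (-2.48), ETV1 (-2.75), PDX1 (-4.59) and HHEX (-3.62), the last known from D cells, were among the others that were lower. ETV1 stood at 1.11, 1.12 and 11.3 UMIs per 10000 in the other endocrine barcodes of days 0, 1 and 3. Those of day 3 included the 3 barcodes high in neuronal markers. Without the barcodes high in markers of another cell type, ETV1 was at -2.11 (edgeR adjusted p = 0.000496). ISL1 was called under all 16 alternatives. Without day 0, PAX6, PDX1 and HHEX were too rare to be tested.

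The factors shared by endocrine cells were not called. NEUROD1 stood at 5.85 UMIs per 10000 in enterochromaffin barcodes and 4.70 in the others on day 0, at 3.86 and 3.82 on day 1, and at 7.28 and 1.28 on day 3 (log2 fold change 0.69 ± 0.36, adjusted p = 1). INSM1 (0.19), PAX4 (0.18), RFX6 (0.05) and NKX2-2 (-0.09) lay near 0. LMX1A reached 0.69 ± 0.26 (adjusted p = 0.857) against all other endocrine barcodes. FEV, a factor of serotonin neurons, had a UMI in 47 of the 433 enterochromaffin barcodes and 26 of the 342 others (0.18 ± 0.56). Against the barcodes without TPH1, LMX1A and the pioneer factor FOXA1 (1.91, adjusted p = 9.52e-06) were higher. LMX1A was tested there only through the enterochromaffin barcodes. In that contrast 10 of the 27 factors were lower, RFX3 at -1.79 among them, beside 120 of 8801 over all genes. Of the 10, 6 had fewer than 50 UMIs in enterochromaffin barcodes. With 50 asked of both kinds, 4 of 16 were lower, beside 58 of 3509 over all genes, and FOXA1 alone was higher. NEUROG3, the factor of endocrine progenitors, was called at -5.20 with 6 UMIs against 45, but over all ages its share went the other way, with a UMI in 9 of the 433 enterochromaffin barcodes (2.08%) and 3 of the 342 other endocrine ones (0.877%). The 40 UMIs of NEUROG3 in the other endocrine barcodes of day 1 were all in 1 barcode, and the enterochromaffin barcodes of that day had none.

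Of the 9 granin and processing genes tested besides CHGA and CHGB, 1 was lower and none was higher (median log2 fold change -0.66). Over all genes, 67 of 9480 were lower. The lower granin gene was SCG5, the chaperone of prohormone convertase 2, at 0.330 UMIs per 10000 in enterochromaffin barcodes and 0.807 in the others on day 0, 0.228 and 0.763 on day 1, and 0.621 and 4.03 on day 3 (-1.83 ± 0.30, edgeR adjusted p = 0.00486). The others of day 3 included the 3 barcodes high in neuronal markers. Without the barcodes high in markers of another cell type, SCG5 was at -1.57 (adjusted p = 0.0113). PCSK1, prohormone convertase 1, stood at 5.62 and 2.43 on day 0, at 5.80 and 3.37 on day 1, and at 9.09 and 3.48 on day 3. It was above the others in each library and lay just over the threshold (1.06 ± 0.23, adjusted p = 0.0508). It was called without day 1 (1.21, adjusted p = 0.0172), in the barcodes thinned to 1000 UMIs (0.81) and against barcodes without TPH1 (2.04, adjusted p = 3.57e-06). There, CPE, the carboxypeptidase that trims prohormones, was lower (-1.74, adjusted p = 4.42e-05). PCSK2 had 1 UMI in the enterochromaffin barcodes.

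None of 22 genes of regulated exocytosis was called against all other endocrine barcodes (median -0.05). SNAP25, a part of the fusion machinery, had a log2 fold change of 0.06 ± 0.29. The vesicle GTPase RAB3B was higher against barcodes without TPH1 (1.45, adjusted p = 0.00574, with 45 UMIs in the latter), and CADPS, which primes granules, was lower (-1.18, adjusted p = 0.0146). Of 15 ion channels, 2 were lower, beside 67 of 9480 over all genes. Both were tested only through the UMIs of the other endocrine barcodes. None of the 8 channels with 50 UMIs in both kinds was called. The acid-sensing channel gene ASIC5 had 0 UMIs in the 433 barcodes and 120 in 11 of the others. With 3 UMIs in place of the 0 and the 120 taken as exact, it was 63.4-fold lower over the group. This leaves out the spread of the 120 over few barcodes. TRPM5, the taste transduction channel, stood at 0.0619 UMIs per 10000 in enterochromaffin barcodes and 0.583 in the others on day 0 and at 0 and 0.803 on day 1 (-3.94 ± 0.57, adjusted p = 0.00226). Both were too rare to be tested without day 0.

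Channels known from serotonin cells were rare here. The irritant receptor TRPA1 had 29 UMIs in 23 of the 433 enterochromaffin barcodes (5.31%) and 5 in 3 of the 342 others, too few for the test. The stretch channel PIEZO2 had 5 UMIs in enterochromaffin barcodes and 36 in the others, and PIEZO1 had a log2 fold change of 0.11 ± 0.34. Of 6 sensing receptors tested, 1 was lower, beside 67 of 9480 over all genes. This was the bile acid receptor GPBAR1 (-3.38 ± 0.69, edgeR adjusted p = 0.0281), likewise tested through the others. It was not called without day 1 (-2.88, adjusted p = 0.0885) and could not be tested without day 0. The somatostatin receptor SSTR1 (1.92, adjusted p = 0.00235) and the neuropeptide Y receptor NPY1R (2.62, adjusted p = 0.0100) were higher against barcodes without TPH1, which held 18 UMIs of SSTR1 and 5 of NPY1R, so both were tested only through the enterochromaffin barcodes. SSTR1 had a UMI in 36.7% of enterochromaffin and 17.5% of other endocrine barcodes. The calcium-sensing receptor CASR had 0 UMIs in enterochromaffin barcodes and 16 in the others, too few for the test. With 3 UMIs in place of the 0 and the 16 taken as exact, it was 8.45-fold lower over the group. This leaves out the counting error of the 16.

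The rule for naming genes outside the lists gave no further gene that was higher and 10 that were lower in all 3 libraries. Besides PYY, ISL1, ETV1, PAX6 and SCG5, these were DIRAS3 (log2 fold change -2.55), LYPD8 (-2.42), STARD5 (-2.09), WFDC2 (-1.57) and TIMP2 (-1.45), of which LYPD8 is a shield protein of the epithelial surface and TIMP2 an inhibitor of metalloproteinases. Without day 0 or without day 1, STARD5 (adjusted p = 0.0990 and 0.0584) and TIMP2 (adjusted p = 0.216 and 0.217) were not called. DIRAS3 was not called without day 0 (-2.69, adjusted p = 0.0701), and WFDC2 could not be tested there. The 4 genes called higher, named after their values were seen, were SPP1 (3.28), THY1 (1.97), GNLY (5.25) and PEG10 (1.72). GNLY and SPP1 were seen in few barcodes. GNLY, a granule protein of killer cells, had 147 of its 148 UMIs in 1 barcode of day 0, and SPP1 (osteopontin) had a UMI in 14 barcodes of day 0, with 249 in the highest. The share for SPP1 over all ages went the other way, with a UMI in 4.62% of enterochromaffin barcodes and 5.56% of the others. THY1 had one in 92 of the 433 enterochromaffin barcodes (21.2%) and 5.56% of the others, and the imprinted gene PEG10 in 72 (16.6%) and 7.31%. THY1 had 25 UMIs in the other endocrine barcodes of all ages, so it was tested only through the enterochromaffin barcodes. THY1 and PEG10 were also called against the barcodes without TPH1 (2.72 and 2.76). These held 7 and 20 UMIs, so there both genes were tested only through the enterochromaffin barcodes. Both were called without the barcodes high in markers of another cell type (2.05 and 1.70). These further calls share barcodes with the first comparison and are not independent of it. Without day 0, SPP1 (adjusted p = 0.314) and THY1 (adjusted p = 0.314) were not called, and GNLY and PEG10 could not be tested.

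Levels within enterochromaffin barcodes differed between ages, each given by 1 library. DDC stood higher on day 3 than on day 0. It was at 3.46 UMIs per 10000 on day 0 (exact Poisson 95% interval 3.25 to 3.68), 4.54 on day 1 (4.07 to 5.05) and 7.79 on day 3 (6.55 to 9.20), and these 3 intervals did not overlap. TPH1, whose level the rule bounds from below, is given as a description only. It was at 7.10 UMIs per 10000 on day 0, 8.14 on day 1 and 12.8 on day 3. The 5 barcodes of day 7 held 10.3 UMIs of TPH1 and 5.26 of DDC per 10000. Over the same 3 ages PCSK1 had 5.62 (5.35 to 5.90), 5.80 (5.27 to 6.38) and 9.09 (7.74 to 10.6), and SCG2, secretogranin II, had 9.83 (9.48 to 10.2), 12.02 (11.2 to 12.8) and 16.2 (14.4 to 18.2).

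PENK and UCN3 stood lower on day 3 than on day 0. PENK was at 14.8 UMIs per 10000 on day 0 (14.4 to 15.3), 8.06 on day 1 (7.43 to 8.73) and 5.87 on day 3 (4.80 to 7.11), and UCN3 was at 7.85 (7.53 to 8.18), 4.98 (4.49 to 5.52) and 4.52 (3.58 to 5.62). TAC1 did not share this order, at 1.04 (0.922 to 1.16), 1.69 (1.41 to 2.02) and 1.86 (1.28 to 2.62), with 23 of its 33 UMIs of day 3 in 1 barcode. The share of barcodes with at least 2 UMIs of PENK was 64.1% on day 0, 69.1% on day 1 and 30.8% on day 3. Its median was 4 UMIs on day 0, 6 on day 1 and 0 on day 3, so the lower summed level of day 1 was not matched by the median. SLC18A1 and LMX1A showed no clear order, with LMX1A at 1.64 (1.501 to 1.80), 1.56 (1.29 to 1.87) and 2.20 (1.57 to 3.01). The crypt markers, by contrast, summed to 3.32 UMIs per 10000 on day 0, 32.6 on day 1 and 0.282 on day 3, and on day 1 the highest barcode held 1071 of their 2429 UMIs. Their part in the summed levels of day 1 was not tested. As a mean over barcodes, which gives each cell the same weight, DDC was at 4.80, 6.54 and 9.57 UMIs per 10000 on days 0, 1 and 3, PENK at 25.4, 17.8 and 9.55, and UCN3 at 14.6, 8.65 and 5.40. Without the barcodes high in markers of another cell type, DDC was at 4.10, 6.15 and 11.2 and PENK at 19.7, 13.1 and 8.09. The order of the 3 ages was thus kept under both settings for DDC and PENK.

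**Figure D5:**
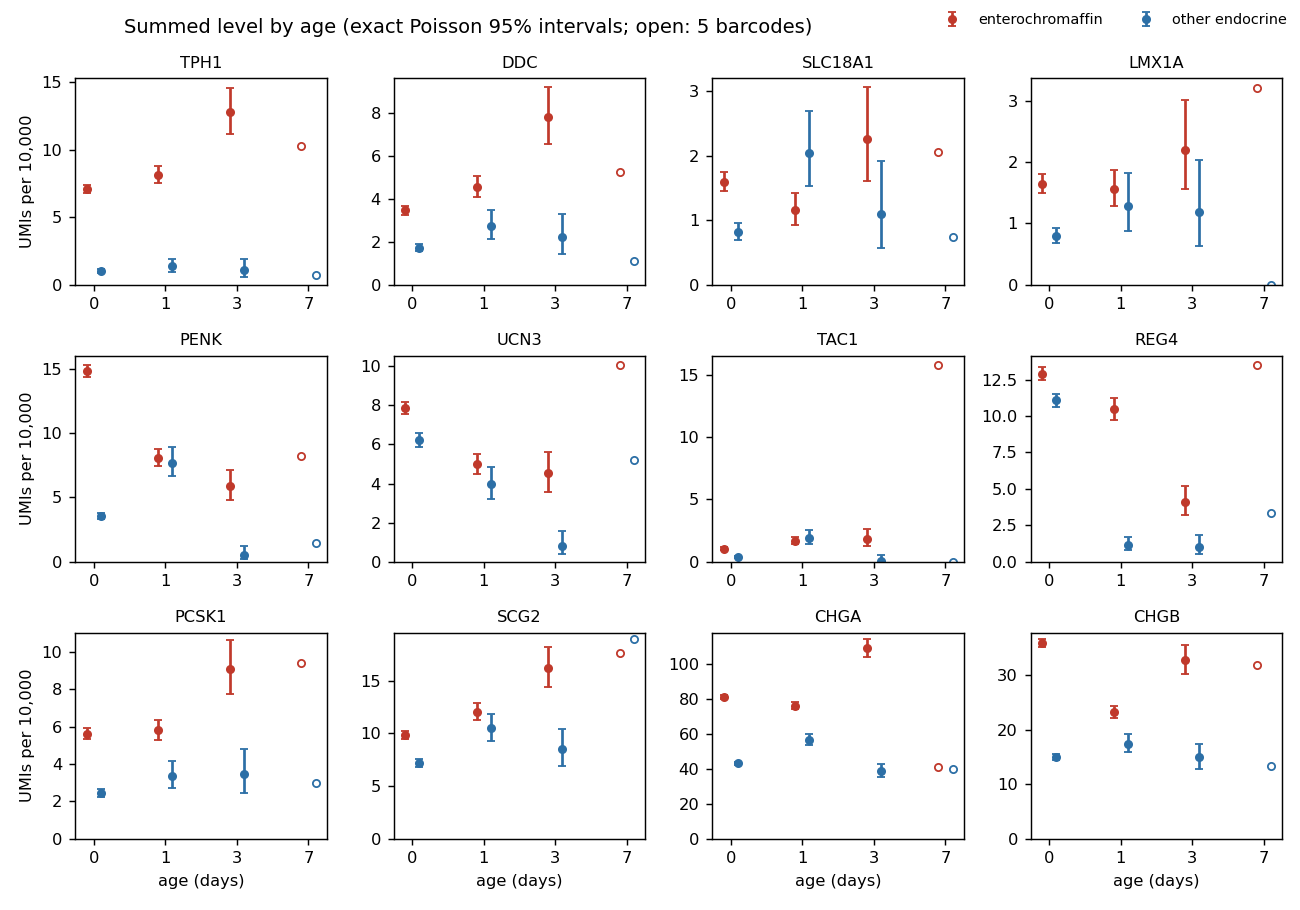
Summed UMIs per 10000 by age in days for enterochromaffin (red) and other endocrine barcodes (blue), with exact Poisson 95% intervals; open symbols are the 5 barcodes of each kind on day 7, without intervals. In enterochromaffin barcodes DDC goes from 3.46 to 7.79 between days 0 and 3 and PENK from 14.8 to 5.87.

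No gene of dissociation stress or of the cell cycle was called. None of 11 immediate early and stress genes was called (median log2 fold change 0.01). On days 0, 1, 3 and 7 FOS stood at 38.8, 23.0, 8.47 and 8.69 UMIs per 10000 in enterochromaffin barcodes and at 32.6, 30.6, 4.40 and 7.43 in the others, so that its level differed more between libraries than between kinds. None of 10 S and M phase genes was called (median 0.31). Their summed level was between 3.25 and 5.48 UMIs per 10000 in enterochromaffin barcodes of days 0, 1 and 3, with a median of 0 UMIs per barcode, and on day 7 141 of 143 UMIs lay in 1 of the 5 barcodes.

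Against all other endocrine barcodes, few markers of other cell types were called apart from the neuronal ones. Lower were 1 of 11 absorptive enterocyte markers (median -0.19), 1 of 3 tuft markers, 1 of 2 myeloid markers and all 3 enteric neuron and glia markers (median -2.84). Higher was 1 of 5 T and NK cell markers, the GNLY named above. Over all genes, 67 of 9480 were lower and 4 higher. None of 5 crypt, 4 B cell or 4 stromal and endothelial markers was called, and no mast cell or platelet marker was frequent enough to test. B cell markers summed to between 2.43 and 14.4 UMIs per 10000 in enterochromaffin barcodes and between 17.6 and 83.4 in barcodes without CHGA or CHGB, and T and NK cell markers to between 0.242 and 36.1 and between 2.86 and 15.5.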

How the data were processed

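Droplet single-cell RNA sequencing libraries (10x Genomics 3' kit, version 3 per the labels and version 2 per the methods of the study) of the 6 ages were analysed. The authors aligned reads with Cell Ranger 3.1.0 (STAR) to the pig genome susScr11 and deposited unfiltered UMI counts per gene and barcode, which were used as deposited. All 20648 gene symbols matched the annotation table. Every barcode with at least 1000 UMIs and 500 genes was kept. Doublets and barcodes rich in mitochondrial UMIs were kept, and no free RNA was subtracted. No clustering was done.

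The members, the 24 gene lists and the comparisons were chosen with earlier results of these data known. Levels are UMIs of a gene summed over barcodes, divided by all their UMIs and scaled to 10000, with exact Poisson 95% intervals. They are set side by side within a gene only. Shares carry exact Clopper-Pearson 95% intervals. The limit of a count of 0 is taken as 3 counts. The summed counts of libraries with at least 10 barcodes on both sides were compared with edgeR 4.0.16 (TMM scaling, quasi-likelihood test, library as a term, R 4.3.3) for genes with at least 50 UMIs over all sums, leaving out TPH1, CHGA and CHGB, with Benjamini-Hochberg adjustment and a threshold of 0.05. On simulated counts for 9237 genes of the comparison with all other endocrine barcodes, the test recovered 17 of 97 genes changed 2-fold (17.5%) and 72 of 86 changed 4-fold (83.7%), with 4 false calls. Values after ± are the size of the log2 fold change divided by the square root of edgeR's F statistic, an approximate standard error. DESeq2 1.42.0 served as an alternative. Medians per barcode were compared over libraries by exact sign-flip permutation (scipy 1.17.1, numpy 2.4.6, pandas 2.3.3, Python 3.11.15), and plots were drawn with matplotlib 3.10.9.

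Named genes were those of the rule and its markers, those of the lists and, among genes called in the same direction in every library, up to 15 higher genes detected in 25% or more of enterochromaffin barcodes and 10 lower genes detected in 25% or more of the others. A few results on single genes are not reported here. Thinning drew 1000 UMIs per barcode, for barcodes without CHGA or CHGB in a random 2000 of each library. Alternatives changed the scaling, the tool, the gene filter, the library term, the thresholds of TPH1, CHGA with CHGB, depth and mitochondrial share, the barcodes with other-lineage markers and the libraries included.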

Additional observations from a re-analysis of the deposited data

Results flagged for a closer look

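For 2 of 108 genes scanned, the exact interval of the ratio of the enterochromaffin to the other endocrine level lay above 1 in one library and below 1 in another. Each age is 1 library and the differences between ages were not tested. SLC18A1 had a ratio of 1.96 on day 0 (95% interval 1.64 to 2.35), 0.564 on day 1 (0.394 to 0.814) and 2.05 on day 3 (1.06 to 4.30). SOX4, a factor of endocrine progenitors, had a ratio of 1.26 on day 0 (1.14 to 1.40) and 0.351 on day 3 (0.246 to 0.497).

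TPH1 was still seen on days 14 and 21, in libraries the comparisons could not use. The barcodes over the minima held 20 UMIs of it on day 14 and 20 on day 21. The highest of these barcodes held 2 on day 14 and 1 on day 21. Barcodes of at most 100 UMIs held 3 UMIs of TPH1 on day 14 and 2 on day 21. The highest sum of CHGA and CHGB in a barcode was 2 and 1 on these days, so none came near the rule.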

How the results depend on the processing

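Counts of genes called in the comparison with all other endocrine barcodes (4 higher, 67 lower) moved with most settings. The higher genes numbered 0 with DESeq2, 25 without a filter on low counts, 2 with at least 200 UMIs per gene, 0 without the library block, 9 to 21 with 1 library left out, 1 with TPH1 of at least 5 UMIs against below 5, 110 against barcodes without TPH1, 20 with CHGA and CHGB of at least 20, 2 with at least 2000 UMIs per barcode, 8 after thinning, 34 in barcodes with fewer than 2 UMIs of other-lineage markers and 15 without the barcodes high in markers of another cell type. The lower genes numbered 32 with DESeq2, 119 without the filter, 23 with at least 200 UMIs, 7 without the library block, 30 to 103 with 1 library left out (24 of the 30 without day 0 were among the 67), 43 with TPH1 of at least 5, 120 against barcodes without TPH1 and 23 after thinning. Fewer genes were tested with the stricter filter, and barcodes without TPH1, with at least 20 UMIs of CHGA and CHGB or with few lineage markers left 2 libraries. The cause of the other moves was not tested. Each library gave 1 sum of either kind, so the library term pairs them, and the counts without it stand above. Between ages, no paired analysis was possible because each age has 1 library.

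Of 601 values for 41 named genes under the alternatives, 477 kept direction and call, 83 lost and 35 gained the call. The sign turned for SLC18A1 (-0.15 without day 0, within a range of -0.15 to 0.90 with 1 library left out, and -0.47 with CHGA and CHGB of at least 20), LMX1A (-0.02) and UCN3 (-0.10) at that same threshold, and GNLY (-8.32) and SPP1 (-0.70) with TPH1 of at least 5. For 4 of these 6 the value had not been called. The share of endocrine barcodes that were enterochromaffin was 75.9% on day 0 with TPH1 of at least 1 UMI, 29.1% with at least 5, 64.7% with at least 3 per 10000, 47.7% with CHGA and CHGB of at least 5, 62.2% with at least 20 and 47.0% with few lineage markers. On day 1 it was 84.1% and 49.5% with TPH1 of at least 1 and 5, and on day 3 85.0% and 50%. The order of days 0 and 1 beyond their intervals was seen only with TPH1 of at least 5.

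The summed level of the 18 enterochromaffin markers per 10000 UMIs was, as a mean over barcodes, 39.2, 34.8, 36.0 and 61.4 on days 0, 1, 3 and 7, with few lineage markers 36.0, 36.7, 38.2 and 43.1, without barcodes high in other markers 28.6, 28.9, 41.5 and 69.8, and with TPH1 of at least 5 UMIs 30.8 on day 0 and 38.7 on day 3. After thinning, a UMI was left in 33.3% of enterochromaffin barcodes for REG4, 11.5% for TAC1, 51.3% for PENK, 61.4% for UCN3, 36.7% for DDC and 23.1% for SLC18A1. With 1 library left out, the depth difference ran from -205 (without day 1) to 902 UMIs (without day 3), with -27.5 without day 0, and the mitochondrial difference from -0.442 (without day 3) to 0.139 points (without day 0).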
